A study of Homo sapiens with 12 samples.

Results

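The muscleblind-like (MBNL), polypyrimidine tract-binding (PTBP), CELF and NOVA proteins are 4 families of sequence-specific splicing regulators, and the RNA levels of 10 of their genes were followed here. The members were taken by gene symbol, namely MBNL1, MBNL2, MBNL3, PTBP1, PTBP2, PTBP3, CELF1, CELF2, NOVA1 and NOVA2. Each symbol matched 1 row in both deposited tables, so the 10 members were found among 48114 annotated genes.

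RNA was sequenced from 2 pancreatic ductal adenocarcinoma (PDAC) cell lines, with 3 libraries in each of 4 groups and 12 libraries in all. PANC-1 cells, used in the study as a basal-like line, received a control siRNA (siCtrl), siRNAs against QKI (siQKI, 40 nM) or siRNAs against RBFOX2 (siRBFOX2, 40 nM) and were collected after 48 h. HPAF-II cells, used as a classical line, received the control siRNA and were collected at the same time. The labels give no dose for the control siRNA. Each subtype was represented by a single line and each knockdown by a single set of siRNAs at 1 time point, and the siRNAs against QKI were a pool. No source used here says that the 3 libraries of a group came from separate cultures, so p-values measure the spread between these libraries, which may be technical.

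The 4 families act on overlapping sets of alternative exons. PTBP1 binds pyrimidine-rich RNA and mostly represses exons in non-neural cells, PTBP2 is its neural paralog, and PTBP3 was first described in blood-forming cells. PTBP1 represses an exon of the PTBP2 transcript, whose skipping shifts the reading frame and sends the RNA to nonsense-mediated decay, so PTBP2 is known to rise where PTBP1 is lost. MBNL proteins bind YGCY motifs and drive splicing towards adult muscle patterns, CELF proteins often oppose them, and NOVA proteins are best known from neurons. QKI and RBFOX2, the targets of the siRNAs, are also splicing regulators.

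The values of each library moved in whole multiples of a fixed step, and 82.1% to 84.8% of the low multiples in a library were themselves multiples of 3. A step is therefore not a sequenced fragment, the depth is unknown, and precision was taken from the replicates. Within PANC-1 groups Pearson's r between libraries across genes, which are not independent, was 0.979 to 0.983. HPAF-II library 3 stood apart from the other 2 by the size of its differences, though not by r. Pearson's r was 0.961 between HPAF-II libraries 1 and 2, 0.964 between 1 and 3 and 0.965 between 2 and 3. The median absolute log2 difference of library 3 was 0.462 from library 1 and 0.508 from library 2, against 0.215 between libraries 1 and 2. Library 3 also had 24267 genes above 0, against 22314 in library 1 and 21606 in library 2. Results on HPAF-II are given with and without library 3. QKI fell to 19.7% of its siCtrl mean in siQKI libraries, and RBFOX2 fell to 13.6% in siRBFOX2 libraries. RBFOX2 also fell by 0.29 on the log2 scale in siQKI libraries (adjusted p = 0.0207, limma), and the change of QKI in siRBFOX2 libraries was 0.13 (adjusted p = 0.105). With upper-quartile rescaling the adjusted p was 0.0664 for the former and 0.0455 for the latter.

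The exon of PTBP1 and PTBP2 through which PTBP1 is known to act on both transcripts is shown, with its counterpart in PTBP3, because the totals of both genes changed. It is 34 bases long in all 3 paralogs, which leaves a remainder of 1 after division by 3, so that skipping it shifts the frame. The sequences were read from GENCODE transcripts on GRCh38 in the direction of transcription, and capitals mark the 19 positions at which all 3 genes carry the same base. The exon lies on the plus strand at chr19:807869-807902 in PTBP1, on the plus strand at chr1:96806419-96806452 in PTBP2 and on the minus strand at chr9:112231380-112231413 in PTBP3.
PTBP1: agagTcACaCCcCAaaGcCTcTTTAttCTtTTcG
PTBP2: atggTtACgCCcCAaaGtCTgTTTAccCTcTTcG
PTBP3: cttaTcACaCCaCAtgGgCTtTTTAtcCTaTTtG
PTBP1 and PTBP2 shared 25 of 34 bases here, PTBP1 and PTBP3 22, and PTBP2 and PTBP3 21. The letters TCTT, a core of PTB-bound sequences, occurred on the sense strand in the exons of PTBP1 and PTBP2 and in 12.8% of 203 internal exons of this length in coding transcripts. The exon was chosen for its known control by PTBP1 and its copies lie in related sequence, so this share is a description and tests nothing. A match of letters is not evidence of binding. The QKI motif ACTAAC, also read on the sense strand, was in none of the 3 exons and in 0 of the 203. Its absence therefore sets these exons apart from no others. The flanking introns were not read, so whether QKI has sites beside these exons was not tested. The deposited values are totals per gene and do not measure the use of this or any other exon.

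PTBP2 rose in siQKI libraries while PTBP1 fell. PTBP1 (GSHG0020964, chr19:797410-812327, hg38) had normalized counts of 147413, 150229 and 149874 in siCtrl libraries and of 69710, 68151 and 65998 in siQKI libraries. The groups did not overlap, and the 3 siQKI libraries retained 45.6% of the siCtrl mean. PTBP2 (GSHG0000832, chr1:96721665-96823739) had 4069, 4153 and 4547 in siCtrl libraries and 24889, 25732 and 23432 in siQKI libraries. Each siQKI library was thus far above the highest siCtrl library. In a limma fit on log2(normalized count + 1), a scale that understates the change of low genes, PTBP1 fell by 1.13 (SE 0.04, adjusted p = 1.15e-11). In the same fit PTBP2 rose by 2.54 (SE 0.06, adjusted p = 8.69e-13), a 5.80-fold increase. Among the 3280 genes that rose past an adjusted p of 0.05 with a mean of at least 50, PTBP2 had rank 19 by size of change. PTBP1 had rank 152 of the 4032 genes that fell under the same criteria.

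The same pair moved differently after RBFOX2 was silenced. PTBP2 had 2735, 2574 and 2565 normalized counts in siRBFOX2 libraries, all below the siCtrl libraries, and fell by 0.70 (SE 0.06, adjusted p = 9.04e-07, limma). PTBP1 had 133482, 128296 and 132593, and fell by 0.18 (SE 0.04, adjusted p = 0.00119). Both genes were therefore lower than in siCtrl libraries. In the test of siQKI against siRBFOX2, PTBP2 was higher by 3.23 on the log2 scale (adjusted p = 6.27e-14) and PTBP1 was lower by 0.95 (adjusted p = 2.24e-10), with no overlap between the groups.

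The ratio of 2 genes within a library does not depend on how libraries are scaled, although it keeps their difference in length. PTBP2 reached 2.85% ± 0.157 (SD, n = 3) of the PTBP1 value in siCtrl libraries, 36.3% ± 1.25 in siQKI libraries and 1.997% ± 0.0580 in siRBFOX2 libraries. The ratio was 12.7-fold higher with siQKI and 0.700 times the siCtrl ratio with siRBFOX2, and neither knockdown overlapped siCtrl. The exact two-sided permutation p was 0.1 in both cases, the smallest that 3 against 3 libraries allow, and 0.15 after adjustment over the 6 ratio tests made. In HPAF-II libraries, PTBP2 was at 3.17%, 2.98% and 1.95% of PTBP1, and the lowest value came from library 3.

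**Figure D1:**
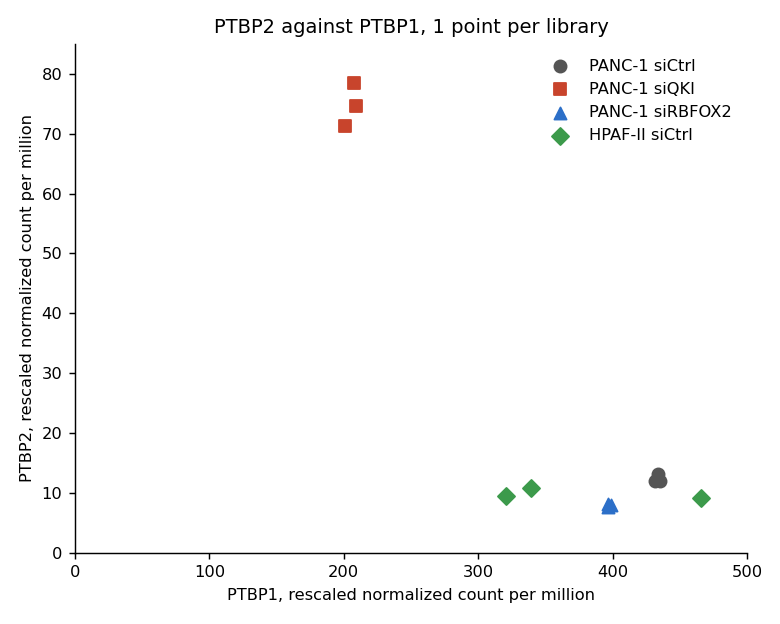
PTBP2 (y axis) against PTBP1 (x axis) as normalized counts rescaled to 1000000 per library, with 1 point for each of the 12 libraries and linear axes from 0. The 3 siQKI libraries sit apart at low PTBP1 and high PTBP2, and the other 9 libraries lie along the bottom with PTBP2 below 14.

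PTBP3 (GSHG0045033, chr9:112217715-112333664) changed little. Its normalized counts were 15546, 15390 and 15799 in siCtrl, 13907, 14710 and 14062 in siQKI and 13167, 13615 and 12503 in siRBFOX2 libraries. Both knockdowns lay below siCtrl. The fall was 0.25 with siRBFOX2 (SE 0.05, adjusted p = 7.65e-04, limma) and 0.13 with siQKI (SE 0.05, adjusted p = 0.0374). The siQKI call was lost when libraries were rescaled by their upper quartile (log2 change −0.07, adjusted p = 0.275) and when any of 5 libraries was left out. Relative to PTBP1, PTBP3 stood at 10.4% ± 0.173 in siCtrl, 20.9% ± 0.875 in siQKI and 9.97% ± 0.598 in siRBFOX2 libraries (SD, n = 3 each). The exact permutation p was 0.1 for siQKI (0.15 adjusted over the 6 ratio tests) and 0.4 for siRBFOX2 (0.48 adjusted).

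Per kilobase of annotated exon, PTBP1 was the most abundant member in all 4 groups. Its level was 114 ± 0.488 rescaled normalized counts per kilobase in siCtrl libraries (SD, n = 3), against 5.50 ± 0.114 for PTBP3 and 1.03 ± 0.0577 for PTBP2. In siQKI libraries the level of PTBP1 was 53.98 ± 1.14, that of PTBP2 was 6.22 ± 0.294 and that of PTBP3 was 5.24 ± 0.191. PTBP2 thus passed PTBP3 with no overlap between their libraries, and stayed below PTBP1. These levels depend on the length taken for a gene, and the order of PTBP2 and PTBP3 in siQKI libraries was the same with the longest transcript (6.23 against 5.40).

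**Figure D2:**
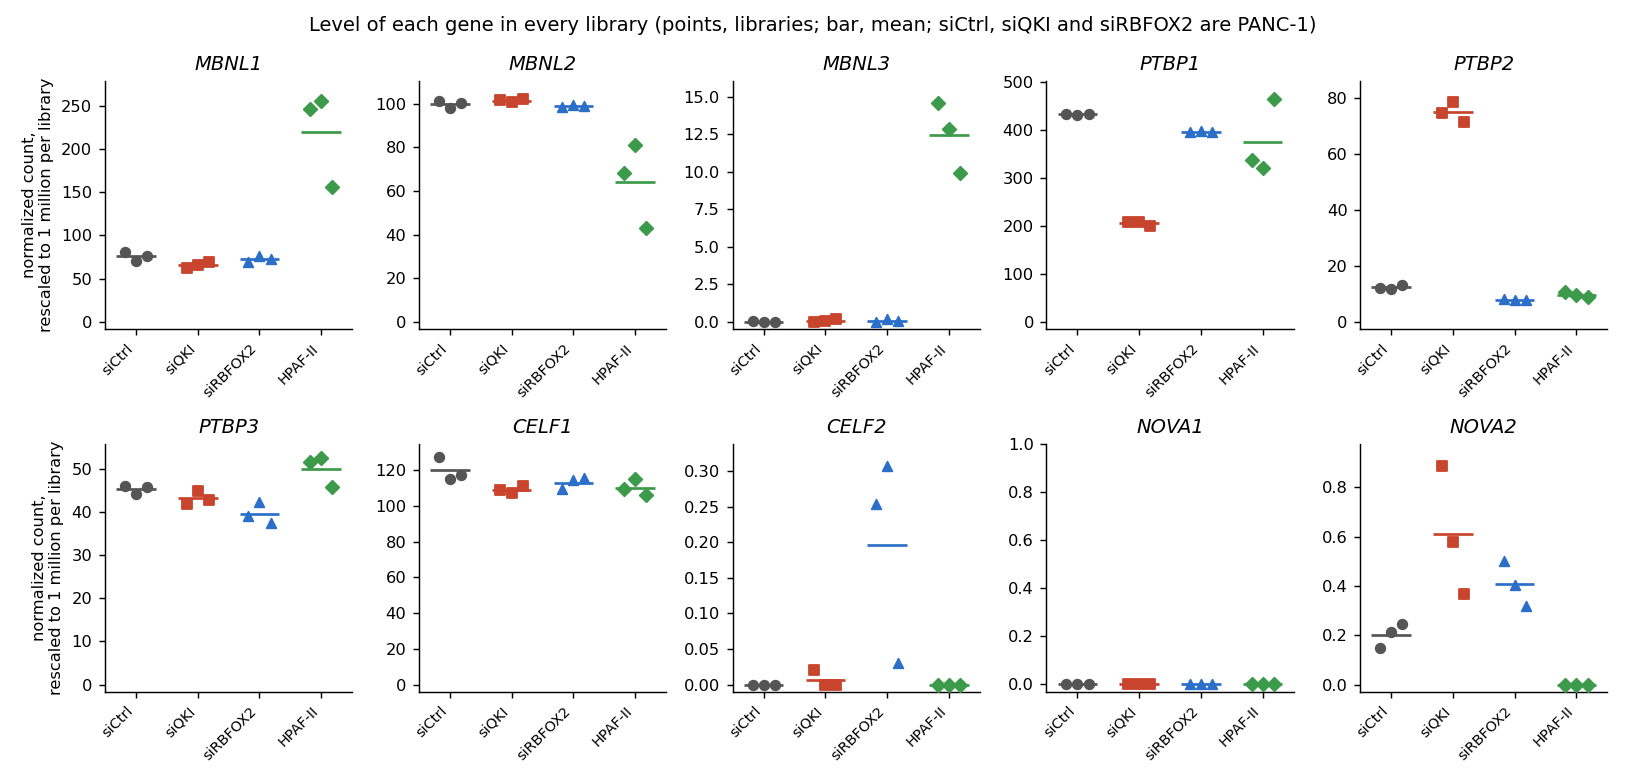
Normalized counts rescaled to 1000000 per library (y axis, linear, a scale of its own for each gene) for the 10 members in 3 libraries of each group (x axis), with a bar at the mean. PTBP1 and PTBP2 separate siQKI from the other groups, MBNL3 is near 0 in PANC-1 and present in HPAF-II, and NOVA1 is listed at 0 throughout.

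Taking the 10 members as a whole, 9 averaged 10 or more normalized counts in PANC-1 and were tested, and NOVA1 was at 0 in all 12 libraries. With siQKI, 6 of the 9 passed an adjusted p of 0.05, against 33.0% of the 22544 genes tested. PTBP2 and NOVA2 rose, against 14.9% of all genes, and MBNL1, PTBP1, PTBP3 and CELF1 fell, against 18.1%. Of all genes 3362 rose and 4070 fell, a split that became 4225 and 3057 with upper-quartile rescaling. The siQKI and siCtrl libraries did not overlap for 7 of the 9 members, against 44.7% of all genes. With siRBFOX2, 5 of the 9 passed, against 26.5% of all genes. CELF2 rose, against 12.0%, and PTBP1, PTBP2, PTBP3 and CELF1 fell, against 14.5%. Over all genes 2713 rose and 3272 fell, a split that became 3128 and 2715 with upper-quartile rescaling. The siRBFOX2 and siCtrl libraries did not overlap for 7 of the 9, against 37.9%. Between siQKI and siRBFOX2, 3 of the 9 differed, against 21.5% of all genes, where PTBP2 was higher in siQKI, against 9.93%, and PTBP1 and MBNL1 were lower, against 11.6%. Over all genes the split was 2238 higher and 2606 lower, and 2764 and 2230 with upper-quartile rescaling. Their libraries did not overlap for 6 of the 9, against 35.2%. The median log2 change of the 9 was −0.04 with siQKI and −0.12 with siRBFOX2, beside 0.03 and 0.01 over all genes tested. Both knockdowns are set against the same siCtrl libraries, so their counts are not independent of each other.

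**Figure D3:**
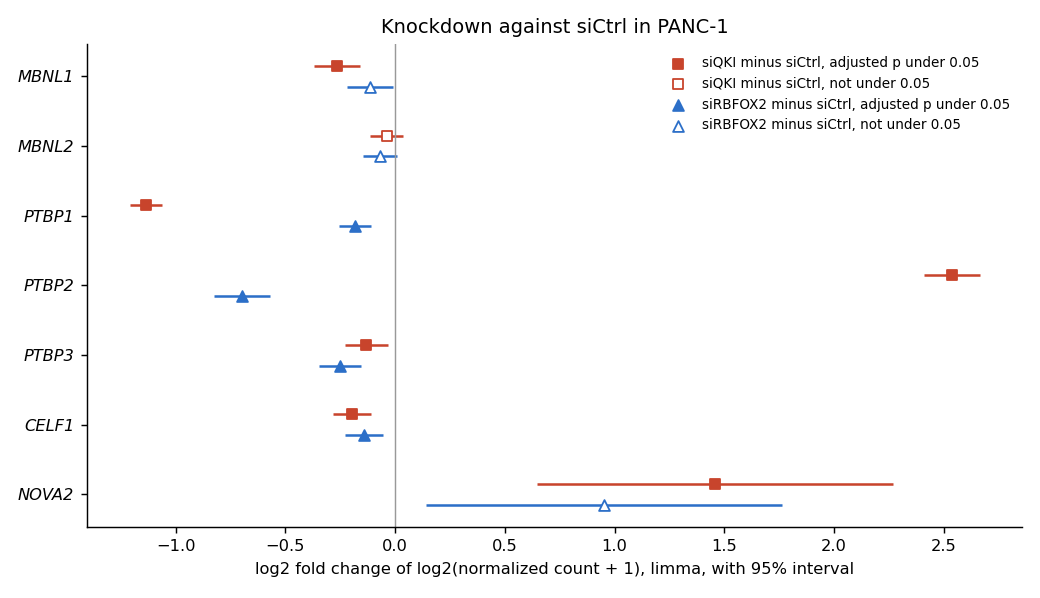
Log2 fold change against siCtrl (x axis, limma, bars show the 95% interval) of 7 members in siQKI (red squares) and siRBFOX2 (blue triangles), with filled symbols for an adjusted p under 0.05. CELF2 and MBNL3 are left out because their values are near 0, and PTBP2 is the member whose changes lie on opposite sides of 0, at 2.54 and −0.70.

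**Figure D4:**
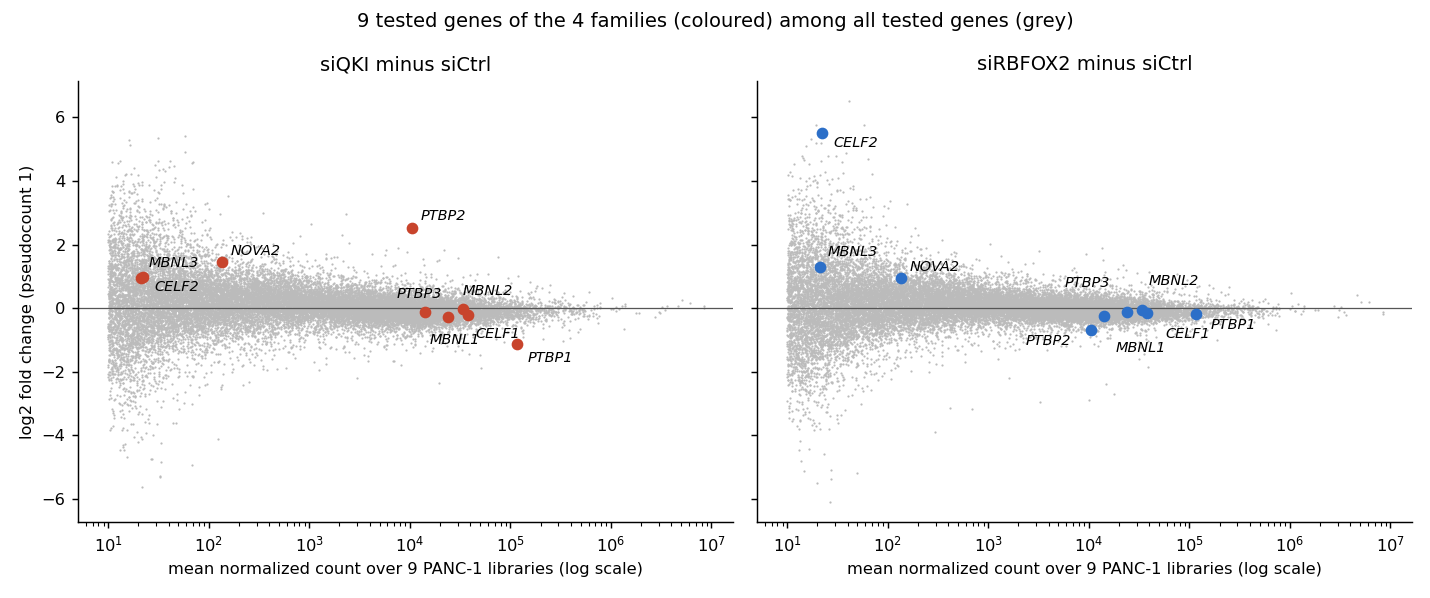
Log2 fold change against siCtrl (y axis, pseudocount 1) against the mean normalized count over the 9 PANC-1 libraries (x axis, log scale) for 22544 tested genes (grey) and the 9 tested members (coloured). With siQKI, PTBP2 and PTBP1 lie at the edges of the genes of like abundance, and CELF2 with siRBFOX2 lies among genes of very low counts, where the spread is wide.

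Among the MBNL genes, a shared exon of 36 bases is shown because it holds, in all 3, the RBFOX motif TGCATG, and an RBFOX protein was silenced here. This exon is alternatively spliced, and its length is a multiple of 3, so skipping it keeps the frame. Capitals mark the 26 positions with the same base in all 3 genes, which include the motif. On GRCh38 the exon lies at chr3:152455542-152455577 in MBNL1 and chr13:97365136-97365171 in MBNL2, both on the plus strand, and at chrX:132384663-132384698 on the minus strand in MBNL3.
MBNL1: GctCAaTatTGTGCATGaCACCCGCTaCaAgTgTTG
MBNL2: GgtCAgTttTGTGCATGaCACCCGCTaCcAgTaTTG
MBNL3: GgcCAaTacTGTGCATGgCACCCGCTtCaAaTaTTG
Read on the sense strand, TGCATG occurred in 1.11% of 540 internal exons of this length in coding transcripts. The exon was chosen for holding this motif, so the share is a description and tests nothing. The 3 copies lie in related sequence and are not separate occurrences. A 54-base exon shared by MBNL1 and MBNL2 was also read, and TGCATG was in 0 of its 2 copies. ACTAAC was in none of the 3 copies of the 36-base exon and in 0 of the 540, so its absence sets them apart from no others. The introns were not read. A match describes the letters and is not evidence of binding, and exon use was again not measured.

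MBNL1 (GSHG0030631, chr3:152243632-152465780), the main MBNL protein of muscle, fell slightly with siQKI. Its normalized counts were 27298, 24452 and 26341 in siCtrl libraries, 20764, 21484 and 22672 in siQKI libraries and 23134, 24636 and 24248 in siRBFOX2 libraries. The siQKI libraries all lay below the siCtrl libraries, whereas the siRBFOX2 libraries overlapped them. The fall was 0.27 with siQKI (SE 0.05, adjusted p = 6.21e-04, limma). With siRBFOX2 the change was −0.12 (95% interval −0.22 to −0.01) with an adjusted p of 0.103. The direct test of the knockdowns gave −0.15 for siQKI against siRBFOX2 (adjusted p = 0.0415), and this call was lost in 9 of 17 alternatives, among them upper-quartile rescaling and a replicate block.

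MBNL2 (GSHG0011231, chr13:97141834-97394120), prominent in brain, was nearly constant in PANC-1. Its means were 34348 in siCtrl, 33454 ± 402 in siQKI and 32770 ± 659 in siRBFOX2 libraries (SD, n = 3). The log2 change was −0.04 with siQKI (95% interval −0.11 to 0.04), whose sign turned to 0.02 with upper-quartile rescaling, and −0.07 with siRBFOX2 (95% interval −0.14 to 0.01). Neither passed the test. MBNL1 reached 75.8% ± 4.09 of the MBNL2 value in siCtrl libraries and 64.7% ± 3.11 in siQKI libraries, without overlap (exact permutation p = 0.1, the smallest possible, and 0.15 adjusted). It reached 73.3% ± 3.62 in siRBFOX2 libraries, which overlapped siCtrl (exact permutation p = 0.5).

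MBNL3 (GSHG0046905, chrX:132369320-132490035) was close to 0 in PANC-1, with normalized counts of 2.28 to 67.1 in the 9 libraries. Libraries of all 3 groups overlapped, and no comparison passed the test. RAP2C-AS1, a transcript annotated across the same region, had a mean of 133 in siCtrl libraries, and strand is not stated, so reads of the 2 genes may not have been told apart at this level.

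CELF1 (GSHG0007709, chr11:47465937-47565539), a widely expressed regulator that binds GU-rich RNA, fell slightly in both knockdowns. It had 43096, 40077 and 40486 normalized counts in siCtrl libraries, 36165, 35178 and 36468 in siQKI libraries and 36759, 36732 and 38563 in siRBFOX2 libraries. No knockdown library reached the lowest siCtrl library. The fall was 0.20 with siQKI (SE 0.04, adjusted p = 0.00135, limma) and 0.14 with siRBFOX2 (SE 0.04, adjusted p = 0.0165), and the latter call was lost with upper-quartile rescaling (adjusted p = 0.0661). The knockdowns differed by −0.06 (95% interval −0.14 to 0.03), which did not pass the test.

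CELF2 (GSHG0003868, chr10:10682455-11336675), found mainly in blood cells, muscle and brain, was listed at 0 in all siCtrl and HPAF-II libraries. It had 85.2, 98.8 and 10.2 normalized counts in siRBFOX2 libraries, and 6.84 in 1 siQKI library with 0 in the other two. The siRBFOX2 difference passed the test (adjusted p = 0.0172, limma), and no fold is given against values of 0. It did not pass without siRBFOX2 library 1 (adjusted p = 0.0960) or library 2 (adjusted p = 0.0970), or with a pseudocount of 0.1 (adjusted p = 0.0775). The antisense and divergent transcripts CELF2-AS1, CELF2-AS2 and CELF2-DT were at 0 in every siRBFOX2 library. These values are low beside the other members, since the siRBFOX2 level per kilobase was 0.0188 against 11.5 for CELF1.

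NOVA2 (GSHG0022998, chr19:45933734-45973865), a neuronal regulator, was low in PANC-1. Its normalized counts were 50.7, 74.0 and 84.5 in siCtrl libraries, 295, 189 and 121 in siQKI libraries and 169, 130 and 107 in siRBFOX2 libraries. Both knockdowns lay above siCtrl. The rise with siQKI was 1.46 (SE 0.38, adjusted p = 0.00775, limma), and without siQKI library 1 it was 1.14 (adjusted p = 0.0533). With siRBFOX2 the log2 change was 0.95 (95% interval 0.14 to 1.76, adjusted p = 0.0813). The annotated region of NOVA2 overlaps that of CALM3, whose siCtrl mean was 97515, and the part of CALM3 reads in the NOVA2 values was not tested. An unnamed gene annotated over NOVA2 had means of 176 in siCtrl, 217 in siQKI, 233 in siRBFOX2 and 162 in HPAF-II libraries. Its part in the NOVA2 values was not tested either. In HPAF-II libraries NOVA2 was listed at 0 while CALM3 had a mean of 168165. NOVA1, the other NOVA gene, was at 0 in all libraries, and NOVA1-DT had means of 0 to 4.19.

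Transcripts named after or annotated over the well-expressed members were far below them in PANC-1. MBNL1-AS1 equalled 1.01% of MBNL1 over the PANC-1 libraries, and an unnamed gene inside PTBP2 equalled 2.61% of PTBP2. This unnamed gene had means of 240 in siCtrl, 394 in siQKI and 188 in siRBFOX2 libraries, beside 4256, 24684 and 2625 for PTBP2. Its share was thus lowest with siQKI, and the pooled value understates it in the other groups.

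HPAF-II cells had more MBNL1 and MBNL3 RNA than PANC-1 cells, and NOVA2 was listed at 0. The 2 tables were normalized separately, so the lines were compared by values rescaled to 1000000 per library, with no test. Of the 8 members with a mean of at least 10 in either line, 3 differed at least 2-fold, against 53.8% of 24673 genes. The 3 were MBNL1 and MBNL3, which were higher in HPAF-II, and NOVA2, listed at 0 there. The libraries of the lines did not overlap for 6 of the 8, against 63.7% of all genes. Line and culture cannot be told apart with a single line of each subtype, and in bulk RNA fewer cells of a type and less RNA per cell cannot be told apart.

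MBNL1 had rescaled values of 70.2 to 80.6 in PANC-1 siCtrl libraries and 156 to 255 in HPAF-II libraries. The lines did not overlap, and the mean was 2.90-fold higher in HPAF-II (log2 ratio 1.53, and 1.73 without HPAF-II library 3). MBNL2 ranged from 98.2 to 101 in PANC-1 libraries and from 43.1 to 80.9 in those of HPAF-II, with a log2 ratio of −0.64 and of −0.42 without library 3. All HPAF-II libraries were thus higher for MBNL1 and lower for MBNL2. Within libraries MBNL1 was at 75.8% ± 4.09 of MBNL2 in PANC-1 siCtrl and at 346% ± 26.001 in HPAF-II (SD, n = 3), a 4.56-fold difference. This ratio was as high in HPAF-II library 3 (362%) as in libraries 1 and 2 (360% and 316%).

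MBNL3 had normalized counts of 4070, 3683 and 2815 in HPAF-II libraries, against 17.2, 3.00 and 6.04 in PANC-1 siCtrl libraries. The log2 ratio of the rescaled means was 8.92, 9.06 without HPAF-II library 3 and 9.90 without PANC-1 siCtrl library 1, the highest of the 3. With the mean of log2(rescaled value + 1) it was 3.70, so its size rests on PANC-1 values of few steps, while its direction was the same in all 10 alternatives that gave it. Per kilobase, MBNL3 reached 1.03 ± 0.195 in HPAF-II, below MBNL1 (29.9 ± 7.48) and MBNL2 (13.1 ± 3.92). The size of this gap depends on the length taken for MBNL3, which was 12006 bases, while its median coding transcript has 1609. MBNL3 overlapped PTBP2, the next member in order (0.814 ± 0.0709), only through HPAF-II library 3.

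The PTBP genes and CELF1 differed less than 2-fold between the lines. PTBP1 ranged from 431 to 435 in PANC-1 libraries and from 321 to 466 in those of HPAF-II, so the lines overlapped. The log2 ratio was −0.21, and −0.39 without HPAF-II library 3, which held the highest PTBP1 value. PTBP2 was lower in each HPAF-II library (9.08 to 10.7) than in any PANC-1 siCtrl library (11.9 to 13.2), with a log2 ratio of −0.34. The log2 ratio of CELF1 was −0.12, and its highest HPAF-II library (114.7) lay just below its lowest PANC-1 library (115.1). For PTBP3 the ratio was 0.14 and turned to −0.14 when the deposited values were used without rescaling, so no direction is given.

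**Figure D5:**
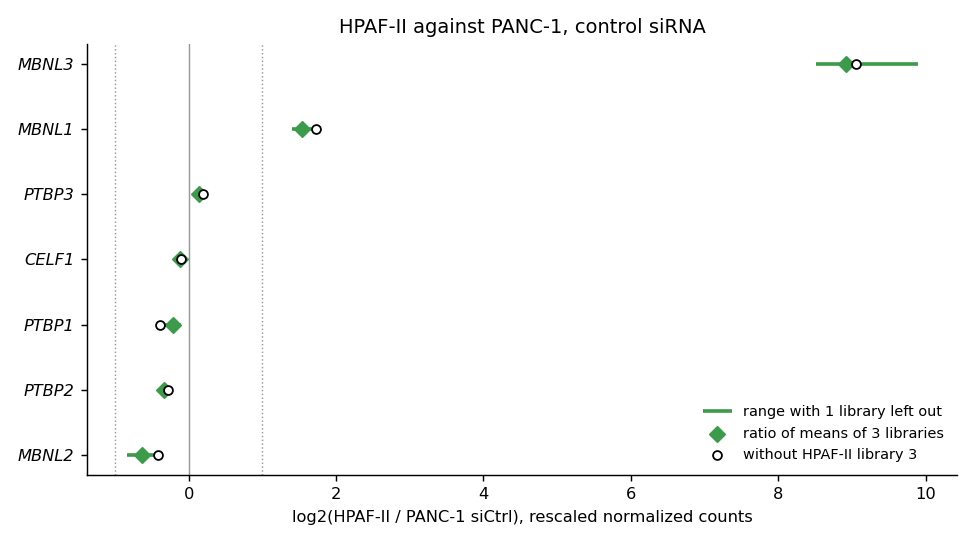
Log2 ratio of HPAF-II to PANC-1 siCtrl (x axis) for the 7 members above 0 in both lines, from means of 3 libraries (diamonds), over the range obtained by leaving out 1 library (bars) and without HPAF-II library 3 (open circles). Dotted lines mark a 2-fold difference, which MBNL3 and MBNL1 exceed and the other 5 do not.

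By level per kilobase, the order in PANC-1 siCtrl libraries was PTBP1 (114), MBNL2 (20.3), CELF1 (12.2), MBNL1 (10.3), PTBP3 (5.50), PTBP2 (1.03), NOVA2 (0.0249) and MBNL3 (0.00214), with CELF2 and NOVA1 at 0. No neighbours overlapped. In HPAF-II libraries the order was PTBP1 (98.3), MBNL1 (29.9), MBNL2 (13.1), CELF1 (11.2), PTBP3 (6.05), MBNL3 (1.03) and PTBP2 (0.814), with CELF2, NOVA1 and NOVA2 at 0. MBNL2 overlapped CELF1 there, as MBNL3 did PTBP2, and with the longest transcript as length CELF1 (14.4) came above MBNL2 (13.7). These points rested on HPAF-II library 3, which held the lowest HPAF-II rescaled counts of MBNL2 (43.1) and MBNL3 (9.91). Without library 3 neither pair overlapped per kilobase of annotated exon. With the longest transcript as length MBNL2 then stayed above CELF1 by mean, but their libraries still overlapped. MBNL1 thus stood in the fourth place in PANC-1 and just below PTBP1 in HPAF-II.

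A list of 11 related regulators was tested in full. With siQKI 4 of the 11 rose and 0 fell, beside 14.9% and 18.1% of all genes, with a median log2 change of 0.16 beside 0.03 over all genes. RAVER1, a co-repressor of PTBP1, rose by 0.33 (adjusted p = 7.28e-05, limma). RAVER2, its paralog, rose by 0.23, and MATR3, a nuclear matrix protein that binds PTBP1, rose by 0.16. CELF5, a neural member of the CELF family, rose by 0.90 (adjusted p = 0.0378) from a low siCtrl mean of 228. Its siQKI libraries (282 to 512) overlapped those of siCtrl (152 to 349). With siRBFOX2 3 of the 11 rose and 0 fell, beside 12.0% and 14.5% of all genes, namely CELF5 (1.23), RAVER1 (0.26) and the helicase gene DDX17 (0.24), and the median change was −0.01. CELF3, CELF4, CELF6, DDX5, HNRNPL and KHSRP passed the test in neither knockdown.

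Genes whose exons the 4 families are known to regulate were followed by their totals, which do not measure splicing. Of 16 such genes 15 were tested. With siQKI 2 rose and 4 fell, so 6 of 15 passed the test beside 33.0% of all genes, with a median change of −0.03. With siRBFOX2 2 rose and 4 fell as well, beside 26.5% of all genes, with a median of 0.03. INSR, the insulin receptor gene and a classical MBNL target, rose in both, by 0.76 (adjusted p = 3.16e-05, limma) with siQKI and by 0.52 (adjusted p = 0.00131) with siRBFOX2. FGFR2 rose by 0.29 with siQKI. PKM, whose mutually exclusive exons PTBP1 controls, fell by 0.18 in both, and ACTN1 fell by 0.25 and 0.17. FAS fell by 0.64 with siQKI, and NUMA1 by 0.21 and DLG4 by 0.19 with siRBFOX2. FLNA fell by 0.10 with siQKI and rose by 0.10 with siRBFOX2. With upper-quartile rescaling the calls of DLG4 with siRBFOX2 (adjusted p = 0.0593) and of FLNA with siQKI (adjusted p = 0.375) were lost.

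Because PTBP2 and NOVA2 are best known from neurons, 8 neural or neuroendocrine markers were read in the same libraries. ELAVL4, STMN2 and NEUROD1 were at 0 in all PANC-1 libraries, and the summed rescaled level of the list was 6.95 to 7.47 in siCtrl, 5.13 to 6.08 in siQKI and 5.21 to 5.59 in siRBFOX2 libraries. SYP made up most of each sum, with means of 6.62, 4.81 and 4.64 in these groups. None of the 5 markers tested rose in either knockdown, beside 14.9% of all genes with siQKI and 12.0% with siRBFOX2. SYP fell by 0.52 with siQKI and 0.57 with siRBFOX2, beside 18.1% and 14.5% of all genes. The other tested markers were low, with SEs from 0.61 (SNAP25) to 2.07 (CHGA), so only a large rise in them could have passed. The lines were checked by epithelial and mesenchymal markers. The 5 epithelial markers summed to 2546 to 2639 in PANC-1 siCtrl and 10285 to 10696 in HPAF-II libraries, and the 3 mesenchymal markers to 5376 to 5567 and 1.09 to 16.2. With siQKI CDH1, the E-cadherin gene, rose by 1.39 (adjusted p = 1.54e-07), KRT18 fell by 0.20, VIM by 0.13 and ZEB1 by 0.28, and CDH2 rose by 0.26. The call of VIM was lost with upper-quartile rescaling (adjusted p = 0.153). With siRBFOX2 CDH1 rose by 0.53 and CDH2 by 0.22, while KRT8, KRT18 and KRT19 fell by 0.23 to 0.35. Of 6 markers of blood, endothelial and fibroblast cells, COL1A1 rose by 0.99 with siQKI and 0.42 with siRBFOX2, and DCN was at 0 in PANC-1. The list summed to 11.3 to 12.7 in siCtrl, 23.2 to 26.9 in siQKI and 13.4 to 20.9 in siRBFOX2 libraries, with PTPRC at 0 in all siCtrl and siQKI libraries. COL1A1 made up most of each sum, with means of 11.9, 24.6 and 16.8 in these groups. The part of these changes in those of the members was not tested.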

How the data were processed

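PolyA RNA was sequenced as paired ends. The authors deposited signal values, which are gene counts scaled by DESeq2 size factors, for 9 PANC-1 and 3 HPAF-II libraries separately. The submitters' processing notes name STAR 2.7.5a, FastQC, Picard, SAMtools, DESeq2 and hg38. Genes are those of FAST DB, and the strand setting is not given in the sources used here. The paper's software list adds featureCounts and another STAR version without saying for which libraries. Values were whole multiples of a step (within 0.01 of a whole number), of which most low ones (up to 30) were multiples of 3, so no count model was used.

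The PANC-1 groups entered 1 limma fit of 9 libraries (version 3.58.1, R 4.3.3, with a mean-variance trend), on log2 values with a pseudocount of 1, for genes with a mean of at least 10, with Benjamini-Hochberg adjustment over all genes and a threshold of 0.05. The procedure was tested on simulated data. HPAF-II values were rescaled to 1000000 over the genes of both tables and compared by ratios of means. Exact permutation tests used scipy 1.17.1. Levels per kilobase used the union of exons of coding transcripts in GENCODE release 29, also the source of exon sequences. Genes named by rule are the members, the targeted genes, listed genes past the threshold, transcripts named after a member and the 5 genes with the highest Pearson's r to the member with the largest change (mean of at least 50). Overlapping genes (CALM3, RAP2C-AS1) and listed genes that passed no test or were at 0 are named beyond this rule, chosen after their values were seen. So are the listed genes named for the difference between the lines. The members and lists were chosen with earlier results of these data known. Alternatives were pseudocounts of 0.1 and 10, no filter, a mean of at least 50, upper-quartile rescaling, a fit without the other group, a replicate block, no trend and each library left out. For the lines they were 3 other scalings, mean log values, a 1.5-fold threshold and each library left out.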

Additional observations from a re-analysis of the deposited data

How the results depend on the processing

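The count of members past the threshold in siQKI libraries was 6 and ranged from 4 to 6 when 1 library was left out. That in siRBFOX2 libraries was 5 and ranged from 3 to 6, with 3 without siRBFOX2 library 1 or library 2, where CELF1 and CELF2 were lost. The count that differed between the knockdowns was 3 and ranged from 2 to 3, and that of members at least 2-fold apart between the lines was 3 under every library left out. Under the other alternatives these 4 counts stayed within 1.5 times their value. The calls of PTBP1, PTBP2, MBNL1 and CELF1 with siQKI and of PTBP1, PTBP2 and PTBP3 with siRBFOX2 were kept in all 17 alternatives, with log2 changes of PTBP2 from 2.50 to 2.60 with siQKI and from −0.73 to −0.65 with siRBFOX2. PTBP3 lost its siQKI call in 7 of 17 and was no longer called with adjusted p-values up to 0.275. The sign of a change that had not passed the test turned for MBNL2 with siQKI under upper-quartile rescaling (0.024). For MBNL3 with siQKI it ran from −0.11 (without siQKI library 3) to 2.07 (without siQKI library 1) when 1 library was left out. For MBNL3 between the knockdowns it ran from −1.40 to 0.79, with 0.47 without siRBFOX2 library 2, and CELF2 with siQKI came to 0 without siQKI library 1. The cause was not tested. Samples with the same replicate number did not deviate together (r from −0.03 to 0.02 over 9 pairs), so the numbers pair nothing. A replicate block gave 6, 5 and 2 members called, since MBNL1 was lost between the knockdowns (adjusted p = 0.0506), and it gave 7336, 5891 and 4758 genes called. The mean of log2 values left 2 members at least 2-fold apart between the lines (of 8, beside 22.0% of all genes), and a threshold of 1.5-fold gave 4 (beside 69.6%). Depth is unknown, which limits CELF2, MBNL3 and NOVA2 in PANC-1.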

Other observations

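PTBP2 had the largest change of any member with a mean of at least 50, and the 5 genes whose log2 values followed it most closely over the 9 PANC-1 libraries were sought among 15249 named genes. Pearson's r was 0.997 for SUN1, 0.989 for NRP2, 0.988 for CLIP1 and WEE1 and 0.986 for LFNG. The points share 3 groups of libraries, so r mostly describes the difference between groups. Genes picked for following PTBP2 in these libraries rise with siQKI through the choice itself. All 5 rose with siQKI, by 0.31 for SUN1, a nuclear envelope protein gene, 0.80 for NRP2, a neuropilin receptor gene, 0.22 for CLIP1, 0.35 for WEE1, a cell cycle kinase gene, and 0.71 for LFNG, a Notch-modifying enzyme gene. With siRBFOX2, WEE1 fell by 0.16 and LFNG by 0.26, whereas SUN1 (−0.07), NRP2 (−0.10) and CLIP1 (−0.05) did not pass the test.

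Between the lines, 7 of the 16 genes with exons regulated by these families were at least 2-fold higher in HPAF-II and 4 at least 2-fold lower, beside 53.8% of all genes in either direction (6893 higher and 6374 lower of 24673). The median log2 ratio of the list was 0.84 beside 0.13 over all genes compared. INSR was 7.94-fold higher by mean rescaled value, FAS 4.73-fold, SRC 3.81-fold and BIN1 2.42-fold. The other higher genes were low even in HPAF-II, with mean rescaled values of 0.982 for CLCN1, 0.846 for TNNT2 and 0.249 for LDB3. The libraries of LDB3 overlapped between the lines. FLNA was at 0.396 times its PANC-1 level, FGFR2 at 0.0257 times and DLG4 at 0.0154 times. DMD was listed at 0 in HPAF-II and TNNT2 at 0 in PANC-1.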
